A study of Mus musculus with 12 samples.

Results

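The nuclear genes for the proteins of the mitochondrial ribosome were followed in mouse embryonic stem cells (mESCs) after induced deletion of *Prdm10*. Members were chosen by symbol, as every *Mrpl* or *Mrps* gene with a number and at most 1 further letter, with pseudogenes left out. This gave 78 of the 54146 genes quantified, of which 26 encode proteins of the small subunit and 51 proteins of the large subunit. The last member, *Mrps36*, carries the name but encodes a subunit of the 2-oxoglutarate dehydrogenase complex. All 78 are protein coding, lie on 17 chromosomes and had a mean normalized count above 100, the minimum for a call.

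The cells were C57BL/6 mESCs, grown on gelatin in serum with LIF, in which both alleles of *Prdm10* are floxed and the tamoxifen-activated recombinase CreERT2 is expressed from the Rosa26 locus. Control libraries (*Prdm10*F/F; Rosa26-CreERT2) came from cells exposed to ethanol (EtOH) for 24 h. The others came from cells exposed for 24 h to 50 nM 4-hydroxytamoxifen (OHT), and their genotype is given as *Prdm10*del/del; Rosa26-CreERT2. RNA was taken at Day 2 and Day 4 after induction, with 3 libraries in each of the 4 groups. Floxed alleles and CreERT2 were shared by all groups, and no group had OHT without the floxed alleles, so that loss of PRDM10 and exposure to OHT with active Cre cannot be told apart here.

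Mitochondrial ribosomes make the few proteins encoded by mitochondrial DNA, which are core subunits of the respiratory chain and the ATP synthase. Their RNA is transcribed in the organelle, whereas all of their proteins are encoded in the nucleus, made in the cytosol and imported. Many of these proteins descend from bacterial ribosomal proteins, and the others were added during the evolution of mitochondria. PRDM10 is a zinc finger transcription factor, and the study mapped its binding sites by ChIP-seq in mESCs.

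Libraries held 35017670 to 41409990 expected counts. The normalized count of *Prdm10* over the whole gene was 801 ± 29.4 in EtOH and 2173 ± 80.3 in OHT at Day 2, and 869 ± 45.8 and 2012 ± 67.5 at Day 4 (SD, n = 3 each). The whole-gene count was thus higher in libraries labelled as deleted. A count over all exons cannot show whether the floxed exon was removed, and exons were not counted here. The study reports that it checked the deletion in its OHT-treated cells at the DNA, RNA and protein levels. Groups are therefore named by their labels, and lower or higher means OHT set against EtOH by those labels. All 6 pluripotency markers examined (*Pou5f1*, *Sox2*, *Nanog*, *Klf4*, *Esrrb* and *Zfp42*) were above 1 TPM in every library, with a summed level of 799.8 to 1019 TPM, whereas none of 6 germ layer markers reached 1 TPM in every library of a group. The 6 markers of feeder fibroblasts summed to between 26.9 and 48.6 TPM, most of it *Vim*. *Thy1* ranged from 0.59 to 2.84 TPM, and *Col1a1*, *Col1a2*, *Postn* and *Dcn* were all below 1 TPM. The feeder sum was higher in Day 4 EtOH (40.1 to 48.6 TPM) than in Day 4 OHT (26.9 to 29.6 TPM). So was the mean of *Thy1* (2.18 and 0.777 TPM), and the part of these markers in the results at Day 4 was not tested. The study's methods speak of biological repeats in general terms but do not say what separated these libraries, so that p-values measure the spread between them, which may be technical. In bulk RNA, fewer cells of a kind and less RNA per cell cannot be told apart.

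To find the members that PRDM10 could act on directly, the study's list of genes with a ChIP-seq peak was searched. Of its 627 genes in the files, 3 are members: *Mrps11*, *Mrpl46* and *Mrps27*. *Mrps11* (ENSMUSG00000030611.10), which encodes a small subunit protein with a bacterial counterpart, spans chr7:78783119-78792989 on the plus strand of GRCm38. *Mrpl46* (ENSMUSG00000030612.6, chr7:78775236-78783531, minus strand), for a large subunit protein without one, overlaps the 5′ end of *Mrps11* on the other strand, and both genes were assigned the same peak. *Mrps27* (ENSMUSG00000041632.7, chr13:99344786-99415562, plus strand), for a small subunit protein without a bacterial counterpart, starts 81 bases from the divergent gene *Ptcd2*.

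Promoters of bound members are shown because all 3 hold the core of the PRDM10 motif, read here as TGGTNNNNNCC on either strand. Sequences are those of RefSeq (GRCm38.p6), from 250 bases before to 50 after the annotated start, with matches in capitals. The *Mrpl46* promoter (chr7:78783040-78783339, minus strand) holds 1 match, from 53 to 43 bases before its start. The same bases, chr7:78783132-78783142, lie 2 to 12 bases after the RefSeq start of *Mrps11*, in whose direction they read GGAATGAACCA. The *Mrps27* promoter (chr13:99344536-99344835, plus strand) holds 2, the first on the minus strand from 103 to 93 bases before the start and the second from 4 to 14 bases after it.
Mrpl46: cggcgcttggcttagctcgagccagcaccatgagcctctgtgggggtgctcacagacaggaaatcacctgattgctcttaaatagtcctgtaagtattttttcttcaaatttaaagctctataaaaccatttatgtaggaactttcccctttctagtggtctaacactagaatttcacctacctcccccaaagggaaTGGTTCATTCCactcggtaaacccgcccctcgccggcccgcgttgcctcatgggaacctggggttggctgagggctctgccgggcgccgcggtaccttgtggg
Mrps27: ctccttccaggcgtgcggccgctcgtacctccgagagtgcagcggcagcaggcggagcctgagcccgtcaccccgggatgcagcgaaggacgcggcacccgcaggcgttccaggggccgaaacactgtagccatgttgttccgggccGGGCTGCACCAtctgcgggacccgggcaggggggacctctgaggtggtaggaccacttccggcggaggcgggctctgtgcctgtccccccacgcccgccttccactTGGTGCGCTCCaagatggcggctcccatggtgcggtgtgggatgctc

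The motif core is also present in the probe that the study used for its gel shift assay and is destroyed in the mutated probe, which differs at 8 letters. In these 28-base probes, capitals mark the letters changed between the wild type (WT) and the mutant (MUT).
WT probe: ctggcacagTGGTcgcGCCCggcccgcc
MUT probe: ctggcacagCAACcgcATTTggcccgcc

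Among members, 69 had a promoter in the RefSeq table, and 11 of these (15.9%) held the motif core. The share was 15.6% over all 27025 genes with a promoter (4205 genes) and 43.1% over 439 genes of the bound list (189 genes). Without the 3 bound members it was 12.1% (8 of 66 members). Those 8 were *Mrpl27*, *Mrpl47*, *Mrpl48*, *Mrpl49*, *Mrpl53*, *Mrpl55*, *Mrpl58* and *Mrps17*. No other motif was searched, and a match is a run of letters, not a binding site.

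The transcript levels of members in cells without OHT were compared in TPM, which accounts for transcript length. Over the 6 EtOH libraries the mean level ranged from 5.56 to 321 TPM, with a median of 43.9 TPM over the 78 members. Small subunit members had a median of 45.3 TPM (18.6 to 112) and large subunit members one of 42.9 TPM (5.56 to 321). The median was 53.9 TPM for the 45 members with a bacterial counterpart and 43.4 TPM for the 32 without.

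The highest level was that of *Mrpl15* (ENSMUSG00000033845.13), a large subunit protein, at 321 ± 20.5 TPM. It was followed by *Mrpl42* at 182 ± 11.3 TPM and *Mrpl30* at 134 ± 5.44 TPM (SD, n = 6 each), both also of the large subunit, and the ranges of the 3 genes did not overlap. The lowest were *Mrpl11* at 19.7 ± 1.07 TPM, *Mrps6* at 18.6 ± 2.6 TPM and *Mrpl23* at 5.56 ± 0.994 TPM. *Mrpl11* (18.6 to 21 TPM) and *Mrps6* (15.9 to 21.8 TPM) overlapped, whereas *Mrpl23* (4.48 to 7.28 TPM) lay below both. The level of *Mrpl23* is uncertain, because reads may be shared with its processed copy *Mrpl23-ps1*.

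**Figure D1:**
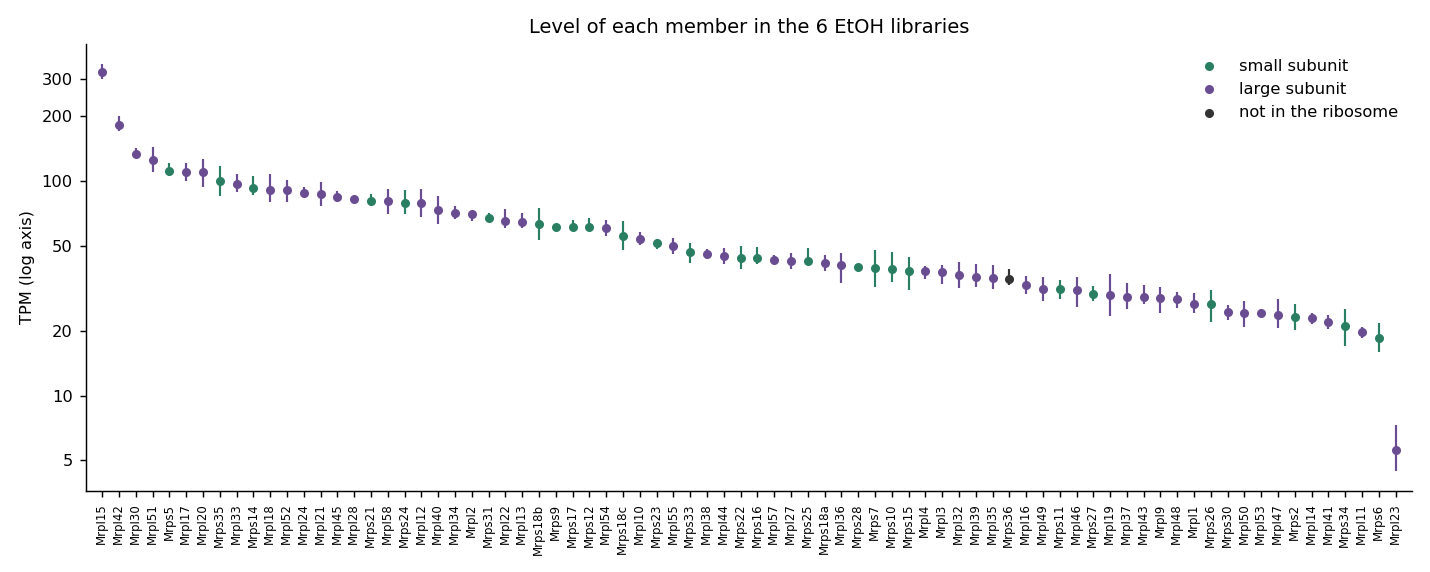
Level of each of the 78 members in TPM (log axis) over the 6 EtOH libraries, with points for the mean and lines from the lowest to the highest library. The quartiles over members are 31.1 and 77.7 TPM, *Mrpl15* stands highest at 321 TPM and *Mrpl23* lowest at 5.56 TPM.

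The summed level of all members was 4249 ± 31.6 TPM in EtOH and 4152 ± 125 TPM in OHT at Day 2, where the libraries overlapped. At Day 4 it was 4852 ± 177 TPM in EtOH and 4385 ± 31.5 TPM in OHT (SD, n = 3 each), and all OHT libraries (4363 to 4421 TPM) lay below all EtOH libraries (4678 to 5032 TPM). As a share of expected counts, members took 0.457% ± 0.00788 and 0.434% ± 0.00324 at Day 2, and 0.485% ± 0.00482 and 0.448% ± 0.0043 at Day 4. By this measure OHT libraries lay below EtOH libraries on both days.

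To ask which members changed by Day 2, OHT libraries were compared with EtOH libraries by the Wald test of DESeq2 over 11642 genes, and a gene was called at an adjusted p below 0.05. Of the 78 members, 21 (26.9%) were called lower, where 10.8% of all genes tested were, and 1 (1.28%) was called higher, where 9.26% of all genes were. The median log2 fold change was -0.10 over members and -0.028 over all genes tested. The estimate was below 0 for 73 members (93.6%) and for 57.7% of all genes. In 46 members (59.0%) every OHT library lay below every EtOH library, which was so for 26.9% of all genes.

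The Day 2 changes were small, between -0.36 and 0.18 on the log2 scale. The members called lower were 7 of 26 in the small subunit (median -0.11) and 14 of 51 in the large subunit (median -0.10). They were 14 of the 45 members with a bacterial counterpart and 7 of the 32 without. The count of 21 depended on the processing. It was 6 once each library's trend on transcript length was removed, when the median was -0.031 and that of all genes -0.0092. In that fit 1012 of 11649 genes were called lower, so that the share of members was not above that of all genes. With scaling to total counts it was 10, where 639 of 11652 genes were called lower. The member count was also 7 without Day2_EtOH replicate 1, 8 without Day2_EtOH replicate 2 and 10 without Day2_OHT replicate 2. In these fits 583 of 11638, 725 of 11630 and 827 of 11616 genes were called lower. The share of members was above that of all genes in each of them. Members are short, with a median effective length of 836 bases against 2276 over all genes tested.

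*Mrps11* had the most negative Day 2 change. Its normalized counts were 1044, 987 and 1016 in EtOH and 786, 799 and 784 in OHT, so that the groups were far apart. The log2 fold change was -0.36 (adjusted p = 1.88e-05 by DESeq2, SE 0.07). At Day 4 the counts were 1091, 1116 and 1082 in EtOH and 766, 809.5 and 770.0 in OHT. Again no library overlapped, and the log2 fold change of -0.49 (adjusted p = 1.21e-11 by DESeq2, SE 0.07) was the most negative of all members. *Mrps11* was called lower on both days under every alternative run.

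The effective length that RSEM gave to *Mrps11*, which depends on the transcripts found, also differed between the groups. It was 737 ± 18.2 bases in EtOH and 860.3 ± 5.18 bases in OHT at Day 2, and 751 ± 5.59 and 861 ± 5.2 bases at Day 4 (SD, n = 3 each). The ratios of 1.17 and 1.15 were the furthest from 1 among members, 73 of which stayed within 5% on each day. With effective lengths as offsets the log2 fold change of *Mrps11* was -0.58 at Day 2 and -0.68 at Day 4. Its level was 29.0 ± 1.05 TPM in EtOH and 20.5 ± 0.885 TPM in OHT at Day 2, and 33.7 ± 0.807 and 20.6 ± 0.442 TPM at Day 4. *Mrps11* and *Mrpl46* overlap on opposite strands. The library kit keeps strand, but whether quantification used it is not given in the sources used here, so that reads in the overlap may be split between the genes.

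*Mrpl46*, across the shared peak, had counts of 1226, 1364 and 1263 in EtOH and 1125, 1194 and 1126 in OHT at Day 2. The groups did not overlap, but the log2 fold change of -0.16 (adjusted p = 0.0944 by DESeq2, SE 0.07) did not pass the test. At Day 4 the counts were 1510.1, 1415 and 1459 in EtOH and 1109, 1144 and 1107 in OHT. Here the groups lay well apart, and the log2 fold change of -0.39 (adjusted p = 1.78e-09 by DESeq2, SE 0.06) passed. The interaction of treatment and day, which tests the difference between the days, was -0.22 (adjusted p = 0.026 by DESeq2, SE 0.08). This call was lost without any one of 7 of the 12 libraries (adjusted p from 0.0563 to 0.113).

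*Mrps27*, the remaining bound member, was the only member called higher at Day 2. Its counts were 2123, 2062 and 1966 in EtOH and 2371, 2317 and 2257 in OHT, without overlap, and the log2 fold change was 0.18 (adjusted p = 0.0124 by DESeq2, SE 0.05). The call was lost without Day2_EtOH replicate 2 (adjusted p = 0.0562) or 3 (0.0711) and without Day2_OHT replicate 1 (0.0801) or 2 (0.0543). At Day 4 the counts of 2185, 2169.8 and 2062 in EtOH and 2184, 2236 and 2294 in OHT overlapped, with a log2 fold change of 0.06 (adjusted p = 0.356 by DESeq2, SE 0.05).

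Across the same promoter region, *Ptcd2*, which encodes a mitochondrial RNA-processing protein of the pentatricopeptide repeat family and is no member, moved the other way. Its counts were 1933, 1737 and 1741 in EtOH and 754, 811 and 776 in OHT at Day 2. At Day 4 they were 1749, 1663 and 1698 in EtOH and 644, 654 and 610.1 in OHT. The groups were far apart on both days. The log2 fold change was -1.21 (adjusted p = 2.43e-64 by DESeq2, SE 0.07) at Day 2 and -1.42 (adjusted p = 2.58e-103 by DESeq2, SE 0.07) at Day 4.

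**Figure D2:**
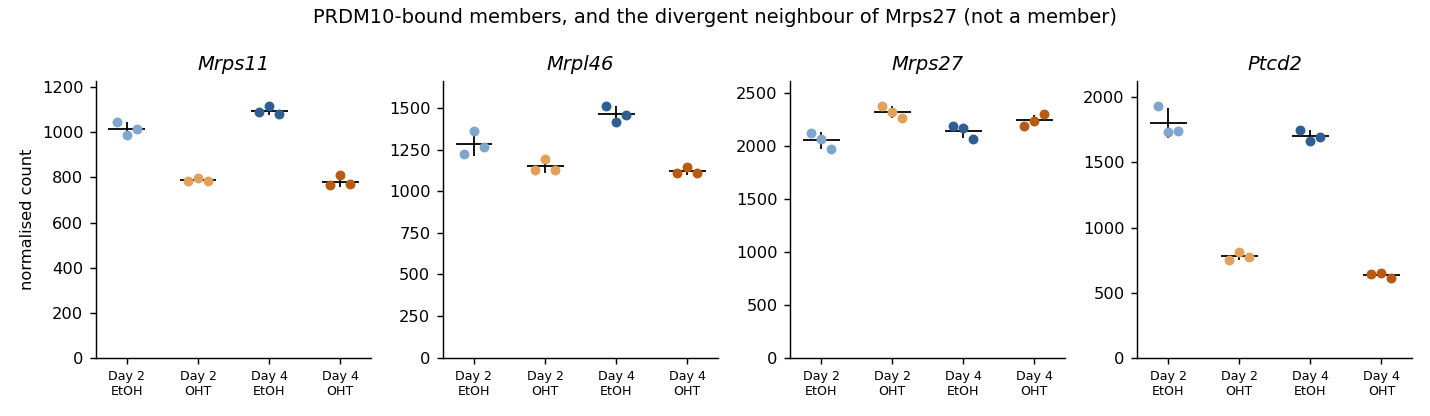
Normalized counts in each of the 12 libraries (points) with the group mean and SD (lines) for the 3 PRDM10-bound members and for *Ptcd2*, the divergent neighbour of *Mrps27*. *Mrps11* and *Ptcd2* in OHT lie below EtOH on both days, whereas *Mrps27* in OHT lies above EtOH at Day 2 and overlaps it at Day 4.

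Of the members without a listed peak, *Mrpl32* and *Mrpl34* had the most negative Day 2 changes among those called. *Mrpl32* (ENSMUSG00000015672.4, chr13:14608184-14613165, minus strand), a large subunit protein with a bacterial counterpart, had counts of 1317, 1322 and 1321 in EtOH and 1087, 1080.3 and 1096 in OHT. The groups were tight and separate, with a log2 fold change of -0.28 (adjusted p = 0.000307 by DESeq2, SE 0.06). At Day 4 its counts of 1490.5, 1329.9 and 1296 in EtOH overlapped those of 1219, 1306 and 1217 in OHT, and the log2 fold change of -0.14 (adjusted p = 0.0937 by DESeq2, SE 0.07) did not pass. The interaction of 0.14 (adjusted p = 0.226 by DESeq2, SE 0.08) did not pass either.

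*Mrpl34* (ENSMUSG00000034880.7, chr8:71464959-71465747, plus strand), the counterpart of bacterial L34, had Day 2 counts of 1483, 1545 and 1397 in EtOH and 1227, 1291 and 1184 in OHT. The log2 fold change was -0.26 (adjusted p = 0.00179 by DESeq2, SE 0.07), a call lost with the length trend removed (adjusted p = 0.0714). At Day 4 its counts were 1477, 1385 and 1378 in EtOH and 1111, 1049 and 1087 in OHT. All OHT libraries were below all EtOH libraries on both days, and the Day 4 log2 fold change was -0.39 (adjusted p = 5.79e-09 by DESeq2, SE 0.06).

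At Day 4 the same comparison was made over 11552 genes. Of the 78 members, 34 (43.6%) were called lower, where 21.7% of all genes tested were, and 5 (6.41%) were called higher, where 23.5% of all genes were. The median log2 fold change was -0.10 over members and 0.0061 over all genes. The estimate was below 0 for 62 members (79.5%) and for 48.9% of all genes. In 44 members (56.4%) every OHT library lay below every EtOH library, against 29.5% of all genes. In 7 members (8.97%) every one lay above, against 33.5% of all genes.

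In the small subunit 11 of 26 members were called lower and 1 higher at Day 4 (median -0.081), and in the large subunit 23 of 51 were lower and 4 higher (median -0.12). Of the members with a bacterial counterpart 21 of 45 were lower and 3 higher, and of those without 13 of 32 and 2. The count called lower at Day 4 ranged from 25 to 38 over all alternatives, and the median was -0.12 with the length trend removed. It was 25 with effective lengths as offsets, where 2175 of 11566 genes were called lower. It was 38 with edgeR and with the length trend removed, where 3070 of 11552 and 2719 of 11556 genes were. The count called higher was 3 without Day4_EtOH replicate 2, without Day4_OHT replicate 1 or without Day4_OHT replicate 2. In these fits 2202 of 11555, 2106 of 11561 and 2154 of 11562 genes were called higher.

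**Figure D3:**
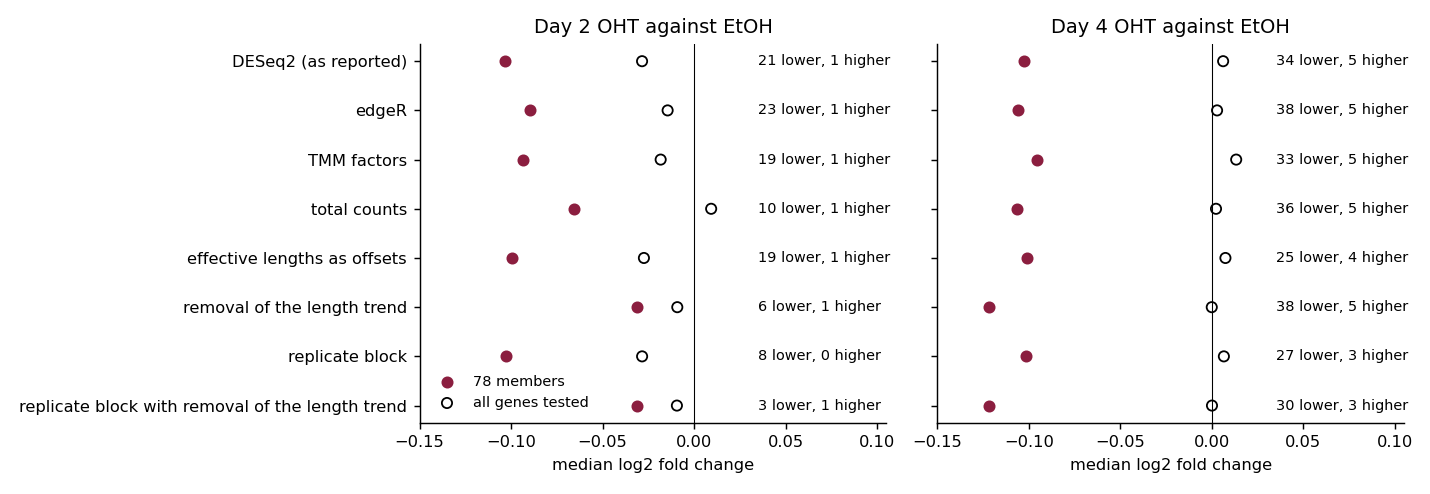
Median log2 fold change (OHT against EtOH) of the 78 members (filled) and of all genes tested (open) at Day 2 (left) and Day 4 (right) under DESeq2 as reported and 7 alternatives, with the members called lower and higher. At Day 2 the member median moves from -0.10 to -0.031 and the count called lower from 21 to 6 with the length trend removed. In that fit 1012 of 11649 genes are called lower. At Day 4 the counts of members called lower stay between 25 and 38, and 1856 to 3070 genes are called lower in these fits.

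*Mrps6* (ENSMUSG00000039680.10, chr16:92058270-92112227, plus strand), the counterpart of bacterial S6, had the largest Day 4 change among members without a listed peak. Its counts were 653, 599.7 and 639 in EtOH and 465, 457 and 471 in OHT, and the groups were far apart. The log2 fold change was -0.44 (adjusted p = 3.53e-06 by DESeq2, SE 0.09). At Day 2 its counts of 571, 534 and 525 in EtOH and 471, 473 and 501 in OHT did not overlap, but the log2 fold change of -0.17 (adjusted p = 0.201 by DESeq2, SE 0.09) did not pass. *Mrps6* overlaps *Slc5a3* on the same strand, so that reads of both can be hard to separate.

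*Mrpl36* (ENSMUSG00000021607.9, chr13:73328513-73332178, plus strand), the counterpart of bacterial L36, was the other member among the 5 most negative at Day 4, beside *Mrps11*, *Mrps6*, *Mrpl34* and *Mrpl46*. Its counts were 1498, 1483 and 1423 in EtOH and 1133, 1173 and 1142 in OHT. The groups did not overlap, and the log2 fold change was -0.36 (adjusted p = 2.54e-08 by DESeq2, SE 0.06). At Day 2 counts of 1367, 1359 and 1163 in EtOH and 1114, 1105 and 1071 in OHT gave a log2 fold change of -0.24 (adjusted p = 0.0102 by DESeq2, SE 0.07). This Day 2 call was lost with the length trend removed (adjusted p = 0.113) and when Day2_EtOH replicate 1 (0.135) or 2 (0.126) or Day2_OHT replicate 2 (0.0543) or 3 (0.0512) was left out. *Mrps11*, *Mrps6*, *Mrpl34*, *Mrpl46* and *Mrpl36* were called lower at Day 4 under every alternative run.

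*Mrpl15*, the most abundant member, was called lower on both days. Its counts were 12643, 12478 and 12433 in EtOH and 10934, 10621 and 11113 in OHT at Day 2, and 13464, 13049 and 13081 against 11859, 11664 and 10973 at Day 4. The groups did not overlap on either day, and the log2 fold change was -0.20 on both (SE 0.04 and 0.03). *Mrpl42* and *Mrpl30*, the next in level, passed on 1 day each. *Mrpl42* passed the test at Day 2 (log2 fold change -0.13, SE 0.04, DESeq2 adjusted p = 0.0193), and *Mrpl30* at Day 4 (-0.15, adjusted p = 0.00299 by DESeq2, SE 0.05). The interaction for *Mrpl42* was 0.068 (DESeq2 adjusted p = 0.357) and for *Mrpl30* -0.068 (0.463), so that a difference between the days was not shown for either. The Day 2 call of *Mrpl42* was lost with the length trend removed (adjusted p = 0.623), with total counts (0.152) and when Day2_EtOH replicate 1 (0.0822) or 2 (0.0554) or Day2_OHT replicate 2 (0.0710) was left out.

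The 5 members called higher at Day 4 were *Mrpl57*, *Mrps15*, *Mrpl38*, *Mrpl2* and *Mrpl4*. *Mrpl57* (ENSMUSG00000021967.4, chr14:57826234-57829296, plus strand), a large subunit protein without a bacterial counterpart, had counts of 961, 881 and 961 in EtOH and 1078, 1127 and 1067 in OHT. OHT libraries were all higher, with a log2 fold change of 0.22 (adjusted p = 0.00518 by DESeq2, SE 0.07). This call was lost with effective lengths as offsets (log2 fold change 0.12, adjusted p = 0.225), without Day4_EtOH replicate 2 (adjusted p = 0.0729) and without Day4_OHT replicate 2 (0.0612).

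*Mrps15* (ENSMUSG00000028861.13, chr4:126046925-126055532, plus strand), the counterpart of bacterial S15, had counts of 1424, 1448 and 1489 in EtOH and 1764, 1609 and 1639 in OHT. The OHT libraries were all higher, and the log2 fold change was 0.20 (adjusted p = 0.00289 by DESeq2, SE 0.06). Without Day4_OHT replicate 1, the highest of these libraries, it was 0.16 (adjusted p = 0.0692).

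*Mrpl38* (ENSMUSG00000020775.13, chr11:116131817-116138868, minus strand), a large subunit protein without a bacterial counterpart, had counts of 2338, 2319 and 2339 in EtOH and 2634, 2720.2 and 2667 in OHT. The groups were tight and separate, with a log2 fold change of 0.20 (adjusted p = 9.85e-05 by DESeq2, SE 0.05). *Mrpl2* (ENSMUSG00000002767.13, chr17:46646229-46650139, plus strand), which encodes the counterpart of bacterial L2, a protein at the catalytic centre of the ribosome, had counts of 2597, 2611 and 2486 in EtOH and 2799, 2902 and 2924 in OHT. All OHT libraries were higher, and the log2 fold change was 0.16 (adjusted p = 0.0017 by DESeq2, SE 0.05). Both were called higher at Day 4 under every alternative run. For *Mrpl4*, the counterpart of bacterial L4, the log2 fold change was 0.13 (adjusted p = 0.0304 by DESeq2, SE 0.05), and the call was lost without Day4_EtOH replicate 2 (adjusted p = 0.0958) or 3 (0.0989) and without Day4_OHT replicate 1 (0.195) or 2 (0.105).

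**Figure D4:**
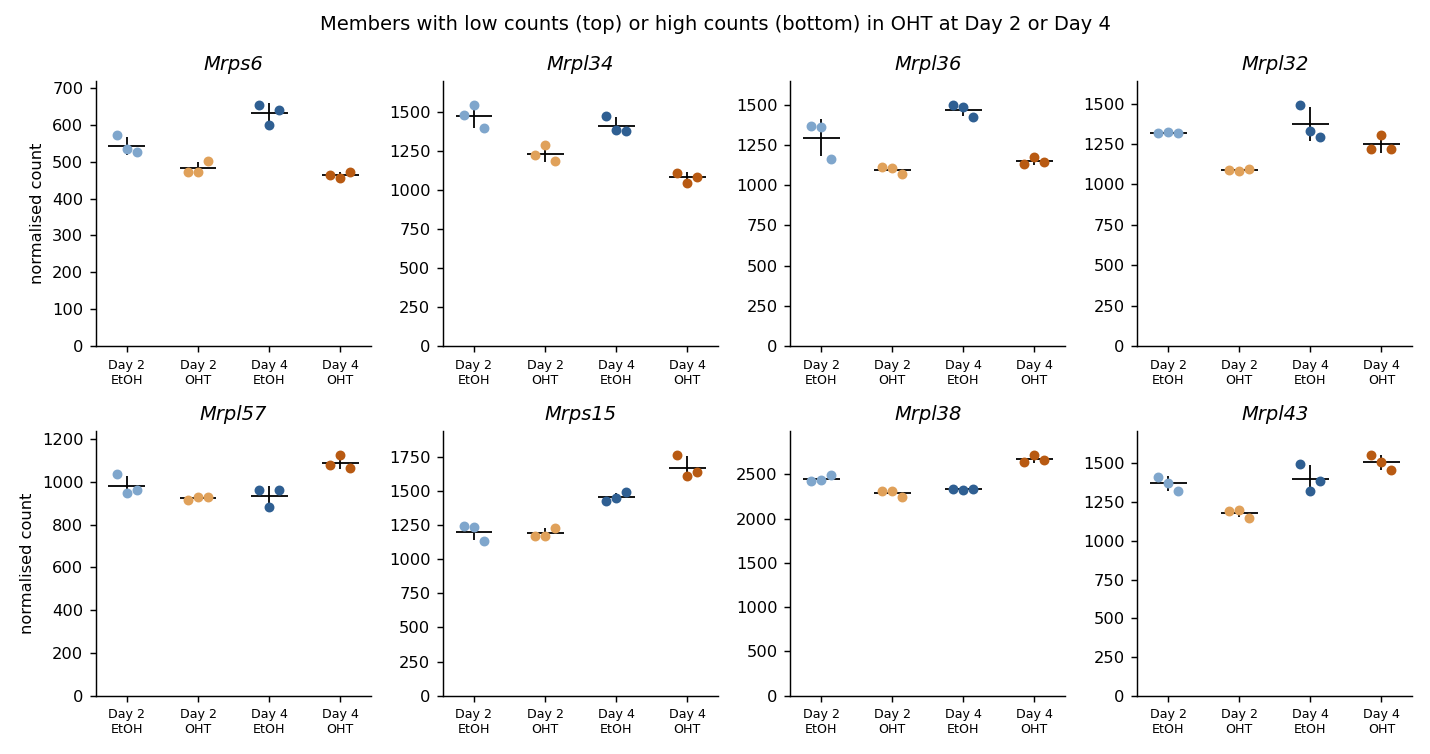
Normalized counts in each of the 12 libraries (points) with the group mean and SD (lines) for 4 members with low counts in OHT (top row) and 4 with high Day 4 OHT counts or a called difference between the days (bottom row). *Mrps6*, *Mrpl34* and *Mrpl36* in OHT lie below EtOH on both days, and *Mrpl38* in OHT lies below EtOH at Day 2 and above it at Day 4.

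*Mrps36*, whose product is no part of the ribosome, did not pass the test on either day. Its counts were 859.9, 861 and 806 in EtOH and 841, 814 and 819 in OHT at Day 2, and 889, 810.2 and 807 against 881, 851 and 799.8 at Day 4. The groups overlapped, with log2 fold changes of -0.03 (adjusted p = 0.845 by DESeq2, SE 0.08) and 0.01 (adjusted p = 0.93 by DESeq2, SE 0.08).

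Considering both days, 14 members were called lower on each, 7 were lower at Day 2 and not called at Day 4, and 20 were lower at Day 4 and not called at Day 2. The 14 were *Mrps11*, *Mrps12*, *Mrps17* and *Mrps31* of the small subunit and *Mrpl1*, *Mrpl15*, *Mrpl18*, *Mrpl20*, *Mrpl28*, *Mrpl34*, *Mrpl35*, *Mrpl36*, *Mrpl45* and *Mrpl51* of the large subunit. Of these, only *Mrps11*, *Mrpl1*, *Mrpl15*, *Mrpl35* and *Mrpl45* kept the Day 2 call with the length trend removed. With the replicate number as a block as well, only *Mrps11*, *Mrpl15* and *Mrpl45* did. *Mrpl1* and *Mrpl35* lost the Day 4 call with the block alone. No member was called in opposite directions, and 31 were called on neither day. These patterns were not counted over all genes, so that they cannot be read as particular to members. The Day 2 and Day 4 estimates, which share no library, had a Pearson's r of 0.49 (Spearman's rho 0.47) across the 78 members. Without the 3 bound members r was 0.41 (rho 0.42, n = 75). Genes are not independent replicates, and members share their length class and libraries, so that these are descriptions.

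**Figure D5:**
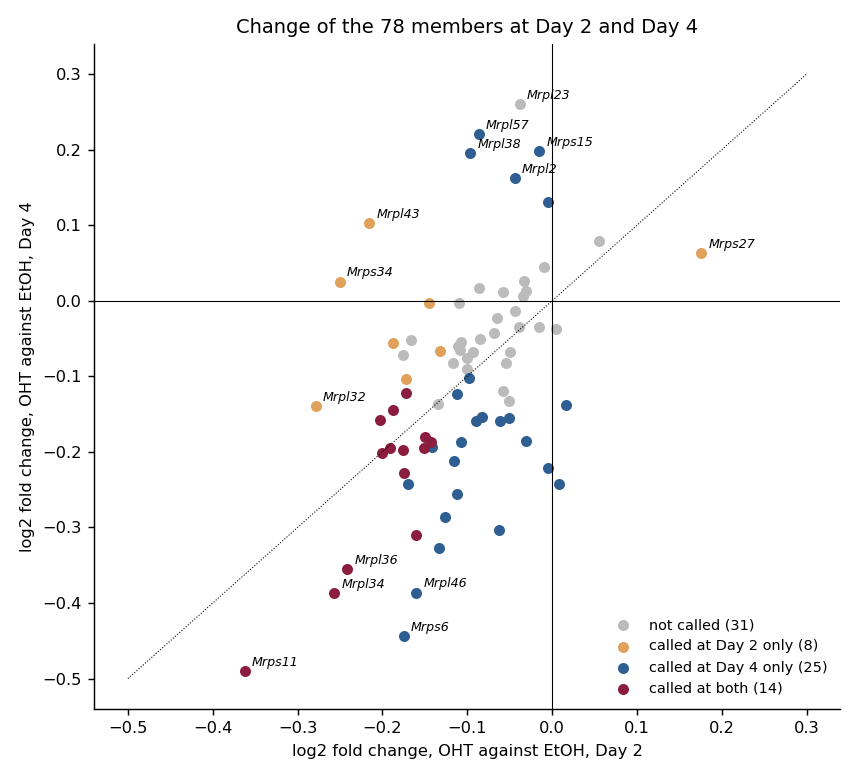
Log2 fold change (OHT against EtOH) of each of the 78 members at Day 2 (x axis) and Day 4 (y axis), coloured by the day at which it was called, with a dotted line of equal change. Most points lie below 0 on both axes, *Mrps11* is the most negative on both, and the 5 members called higher at Day 4 lie at or left of 0 at Day 2.

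A difference in change between Day 2 and Day 4 was sought with an interaction term, fitted to the 12 libraries together and tested in 11612 genes. Among members, 6 (7.69%) were more negative at Day 4, where 13.6% of all genes were called in this direction, and 7 (8.97%) were more positive, where 18.9% of all genes were. The median was 0.0024 over members and 0.035 over all genes. The member median changed sign with the processing, to -0.042 with total counts, where that of all genes was -0.0098, and to -0.066 with the length trend removed, where that of all genes was 0.015. The split of 6 and 7 was 11 and 7 with edgeR, where 1772 and 2736 of 11616 genes were called. It was 11 and 5 with total counts, where 2107 and 1675 of 11621 genes were called. With the length trend removed it was 19 and 2, where 1788 and 1922 of 11619 genes were called. In that last fit the share of members more negative at Day 4 was above that of all genes. Whichever library was left out, 1 to 4 members were more negative, with 1 without Day2_OHT replicate 3, and 4 to 8 were more positive.

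The smallest adjusted p was that of *Mrpl38*, whose counts at Day 2 were 2422, 2437 and 2488 in EtOH and 2312, 2309.9 and 2245 in OHT. These lay below EtOH, whereas at Day 4 they lay above it, and the interaction was 0.29 (adjusted p = 1.45e-06 by DESeq2, SE 0.05). It was called under every alternative run. *Mrpl43* (ENSMUSG00000025208.8, chr19:45004829-45006442, minus strand), a large subunit protein without a bacterial counterpart, had counts of 1414, 1375 and 1322 in EtOH and 1194, 1198 and 1148 in OHT at Day 2. At Day 4 its counts of 1494, 1320.0 and 1389 in EtOH overlapped those of 1556, 1506 and 1457 in OHT. The interaction was 0.32 (adjusted p = 0.000624 by DESeq2, SE 0.08).

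*Mrpl2* and *Mrpl57* followed, with interactions of 0.21 (adjusted p = 0.00196 by DESeq2, SE 0.06) and 0.31 (adjusted p = 0.00261 by DESeq2, SE 0.09). Neither was called with the length trend removed (adjusted p = 0.0572 and 0.0619). Their Day 2 changes of -0.04 and -0.09 did not pass the test (DESeq2 adjusted p = 0.628 and 0.476).

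Levels also changed with time in culture without OHT. In the 6 EtOH libraries, 24 members (30.8%) were called higher at Day 4 than at Day 2, where 20.7% of all 11570 genes tested were, and 2 (2.56%) were called lower, where 20.6% of all genes were. In 35 members (44.9%) every Day 4 library lay above every Day 2 library, against 29.7% of all genes. The median log2 fold change was 0.061 over members and -0.0015 over all genes. The largest rise was that of *Mrps7* (ENSMUSG00000046756.10, chr11:115603925-115608036, plus strand), the counterpart of bacterial S7, which binds the head of the small subunit. Its counts were 2716, 2655 and 2520.4 at Day 2 and 3404, 3233 and 3339 at Day 4, without overlap, and the log2 fold change was 0.33 (adjusted p = 9.72e-11 by DESeq2, SE 0.05).

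*Mrps34*, a small subunit protein without a bacterial counterpart, had EtOH counts of 660.3, 680.0 and 677 at Day 2 and 862, 823 and 825 at Day 4, with a log2 fold change of 0.31 (adjusted p = 0.000315 by DESeq2, SE 0.08). It overlaps *Nme3* on the same strand. *Mrps18b* had counts of 2309, 2254 and 2197 at Day 2 and 2835, 2735 and 2709 at Day 4, with a log2 fold change of 0.29 (adjusted p = 5.48e-08 by DESeq2, SE 0.05). Neither gene's days overlapped. The 2 members called lower were *Mrpl2* (log2 fold change -0.15, SE 0.05, DESeq2 adjusted p = 0.00892) and *Mrpl28* (-0.14, adjusted p = 0.0101 by DESeq2, SE 0.05). Both calls were lost without Day2_EtOH replicate 1 (adjusted p = 0.0595 and 0.0895), without Day2_EtOH replicate 2 (0.0766 and 0.078) or without Day4_EtOH replicate 3 (0.0809 and 0.0561).

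In the 6 OHT libraries, 29 members (37.2%) were called higher at Day 4 than at Day 2, where 30.9% of all 11633 genes were, and 5 (6.41%) were called lower, where 23.1% of all genes were. In 38 members (48.7%) every Day 4 library lay above every Day 2 library, against 39.1% of all genes. The median was 0.068 over members and 0.036 over all genes. This comparison uses the same OHT libraries as those within each day. With the length trend removed 20 members were called higher and 12 lower, where 3318 and 2749 of 11643 genes were. In that fit the share of members called higher was below that of all genes. With total counts 22 members were called higher and 10 lower, where 3124 and 3052 of 11643 genes were. Of the members called higher, 17 were called in both EtOH and OHT, which is 70.8% of those in EtOH and 58.6% of those in OHT. *Mrps34* showed the largest rise in OHT, from 557, 538 and 602 at Day 2 to 879.5, 838 and 841 at Day 4, with a log2 fold change of 0.60 (adjusted p = 2.65e-12 by DESeq2, SE 0.08). At Day 2 this gene had been lower in OHT (log2 fold change -0.25, SE 0.09, DESeq2 adjusted p = 0.0281), and at Day 4 it overlapped EtOH. The Day 2 call was lost with the length trend removed (adjusted p = 0.201), with total counts (0.0844) and without Day2_EtOH replicate 1 (0.0812), 2 (0.120) or 3 (0.0856) or Day2_OHT replicate 1 (0.105) or 2 (0.161).

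Other genes of the same pathway were examined as lists written from general knowledge. Of 5 mitoribosome proteins with other names, 3 were called lower at Day 2 and 2 at Day 4, and none higher, with medians of -0.14 and 0.032. Over all genes 10.8% and 21.7% were called lower on these days, and 9.26% and 23.5% higher. *Dap3*, which encodes a GTP-binding protein of the small subunit and is on the PRDM10-bound list, fell furthest. Its counts were 4477 ± 111 in EtOH and 2557 ± 72.9 in OHT at Day 2, and 4305 ± 94.4 and 2420.3 ± 73.2 at Day 4 (SD, n = 3 each). The log2 fold changes were -0.81 (adjusted p = 1.07e-60 by DESeq2, SE 0.05) and -0.83 (adjusted p = 3.13e-81 by DESeq2, SE 0.04), more negative than that of any of the 78 members. *Ptcd3*, a small subunit protein that is also on the bound list, did not pass the test on either day (log2 fold change 0.01 and 0.04, DESeq2 adjusted p = 0.906 and 0.378).

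Of 26 genes for assembly of the mitoribosome and modification of its RNA, 3 were called lower and none higher at Day 2, and 7 were lower and 7 higher at Day 4. On the lower side this was 11.5% of the list at Day 2 and 26.9% at Day 4, near the 10.8% and 21.7% of all genes. The 26.9% called higher at Day 4 was near the 23.5% of all genes, whereas at Day 2 9.26% of all genes were called higher. *Mterf3*, needed for assembly of the large subunit and on the bound list, was lower on both days (log2 fold change -0.65 and -0.55, SE 0.07 each, DESeq2 adjusted p = 2.26e-16 and 2.66e-13). *Mrm1*, a methyltransferase of the large subunit RNA, had the largest rise at Day 4 (log2 fold change 0.59, SE 0.09, DESeq2 adjusted p = 8.25e-11). The median of the list was -0.083 at Day 2 and -0.012 at Day 4.

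Of 19 mitochondrial translation factors, 2 were called lower at Day 2 and 5 at Day 4, and none higher, with medians of -0.074 and -0.10. The shares called lower, 10.5% and 26.3%, were near those of all genes, 10.8% and 21.7%. On the higher side 9.26% and 23.5% of all genes were called. Whether the list of 19 differs from all genes was not tested. Estimates below 0 made up 89.5% and 78.9% of the list, against 57.7% and 48.9% of all genes. *Lrpprc*, which stabilizes mitochondrial mRNA and is on the bound list, fell the most (log2 fold change -0.41 and -0.62, SE 0.04 and 0.03, DESeq2 adjusted p = 1.57e-23 and 1.36e-80). Among the 8 unbound members with a motif core in the promoter, *Mrps17* was called lower on both days and *Mrpl48* at Day 4, and none was called higher. These 1 of 8 at Day 2 and 2 of 8 at Day 4 stand beside 10.8% and 21.7% of all genes called lower.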

How the data were processed

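RNA-seq was analysed for 12 libraries in 4 groups of 3, assigned by sample title. Alignment by the authors used STAR (2.6.0c) and the GRCm38.p6 assembly, and RSEM gave gene values. The deposited expected counts, which RSEM estimates for each library and which need not be whole, were rounded. Deposited TPM values were used only to compare levels between genes, without tests. RSEM's effective lengths and the posterior SD of each count were read from the same deposited files. Gene symbols came from a deposited comparison table, and the fold changes and p-values that the authors computed with DESeq2 (1.22.2) were not used. The list of PRDM10-bound genes is the study's own, and only its gene names and peak assignments were read. All members and lists were chosen with earlier results of these data known.

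Counts were tested over all genes with DESeq2 (1.42.0, R 4.3.3, Wald test, Benjamini-Hochberg adjustment), the tool of the study's methods. Calls needed an adjusted p below 0.05 and a mean normalized count above 100. Printed normalized counts use size factors of all 12 libraries. Alternatives were edgeR (4.0.16, quasi-likelihood), TMM factors, total counts, offsets from effective lengths, subtraction of a loess trend on length within libraries (span 0.3, 0.5 added to counts, genes of at least 50 bases), the replicate number as a block, no minimum mean, and each library left out. Scripts were checked on simulated counts. No pair of replicates was as close as sampling alone would make it (3.41 to 11.2 chi-square units per gene).

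Members were named by rule: those on the bound list, the 5 most negative and 5 most positive called changes at Day 4 and the 3 of each at Day 2, the 4 smallest interaction adjusted p, the 3 highest and 3 lowest TPM, the 3 largest called differences between days in EtOH in each direction, and *Mrps36*. Genes outside the members, and members named otherwise, were chosen after their values were seen. Coordinates are those of GENCODE vM21. Errors are SDs over libraries, since reads may include PCR duplicates. The motif core was read from the study's motif and probes. With 3 libraries a group, exact permutation allows no two-sided p under 0.1 and was not used.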

Additional observations from a re-analysis of the deposited data

Results flagged for a closer look

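A total of 13 members had a change in OHT that differed between Day 2 and Day 4 by the interaction test of DESeq2. In this fit the share of members was below that of all genes. Of members 7.69% were more negative and 8.97% more positive, where 13.6% and 18.9% of all genes were. With the length trend removed, 19 members were more negative and 2 more positive, where 1788 and 1922 of 11619 genes were. On the negative side the share of members was then above that of all genes. Among the members named by rule, the interaction (Day 4 change minus Day 2 change, log2) was 0.21 for *Mrpl2*, 0.29 for *Mrpl38*, 0.32 for *Mrpl43*, 0.31 for *Mrpl57*, 0.22 for *Mrps15* and 0.28 for *Mrps34*, all more positive at Day 4. For *Mrpl46* it was -0.22, more negative at Day 4. The remaining 6 members were *Mrpl12* (-0.19, DESeq2 adjusted p = 0.0112), *Mrpl16* (-0.24, adjusted p = 0.0133), *Mrpl20* (-0.14, adjusted p = 0.0362), *Mrpl24* (0.14, adjusted p = 0.019), *Mrpl48* (-0.21, adjusted p = 0.0292) and *Mrps35* (-0.15, adjusted p = 0.0272). Of the 7 more positive members, only *Mrpl38* and *Mrpl43* were called with the length trend removed, whereas all 6 more negative members were. Only *Mrpl2*, *Mrpl38*, *Mrpl43* and *Mrpl57* of the 13 were called whichever library was left out. Groups of 3 libraries were too small to test single libraries as outliers.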

How the results depend on the processing

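The Day 2 result depended most on the processing. Of the 21 members called lower, 10 were still called with total counts, where 639 of 11652 genes were called lower. With removal of the length trend it was 6, where 1012 of 11649 genes were. No other member was called lower in either fit, and leaving out single libraries gave 7 to 21. Over the fits without single libraries 583 to 1125 genes were called lower. The single member called higher ranged from 0 to 1 over the libraries left out. The Day 2 median was -0.066 with total counts and -0.031 with removal of the length trend. At Day 4, 3 to 5 members were called higher without single libraries, where 2106 to 2651 genes were. The interaction called 11 members more negative with edgeR and with total counts, where 1772 of 11616 and 2107 of 11621 genes were. With removal of the length trend it called 19 more negative and 2 more positive, where 1788 and 1922 of 11619 genes were. Without single libraries 1 to 4 members were more negative and 4 to 8 more positive. Between days, 0 to 2 members were lower in EtOH without single libraries, where 1802 to 2148 genes were. In OHT, 11 members were lower with edgeR, 10 with total counts and 12 with removal of the length trend. In these fits 3348 of 11636, 3052 of 11643 and 2749 of 11643 genes were lower. Without single libraries 3 to 5 members were lower. The member median in OHT was 0.040 with total counts, where that of all genes was 0.0076. With removal of the length trend it was 0.0092, where that of all genes was 0.019.

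Libraries carry replicate numbers, but same-numbered libraries did not deviate together within or between days (r from -0.43 to 0.29 over 11616 genes). For differently numbered libraries r ranged from -0.40 to 0.42. With 3 libraries a group, these values cannot show whether the numbers pair the libraries, so that the block was kept as an alternative. With the replicate number as a block, 8 members were called lower and 0 higher at Day 2, where 649 and 657 of 11644 genes were. At Day 4, 3 members were higher, where 2013 of 11555 genes were. In the interaction 0 members were more negative and 3 more positive, where 1068 and 1365 of 11616 genes were. Between days in OHT 3 members were lower, where 2124 of 11638 genes were. With the block and removal of the length trend, 3 members were lower at Day 2 (median -0.031), where 574 of 11651 genes were. In this fit 3 members were higher at Day 4, where 1979 of 11559 genes were. In the interaction 1 member was more positive, where 1186 of 11622 genes were. Between days 0 members were lower in EtOH, where 1610 of 11578 genes were. In OHT 8 members were lower and 13 higher (median 0.0097), where 2116 and 2673 of 11646 genes were. The block alone also ended the calls of *Mrps27*, *Mrpl36*, *Mrpl42*, *Mrpl43* and *Mrps34* at Day 2, of *Mrpl57* and *Mrpl4* at Day 4, and of every member in the interaction except *Mrpl38*, *Mrpl43* and *Mrpl2*. The interaction median of 0.0024 changed sign, to -0.042 with total counts, -0.066 with removal of the length trend and -0.066 with the block as well, and to -0.0046 with effective lengths as offsets, within the spread of replicates. No gene value listed changed sign. Among the gene values, 18 of 42 kept their direction and side of the threshold under every alternative. *Mrpl23* is uncertain beside its copy. The causes of these changes were not tested.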

Other observations

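*Mrpl23*, a large subunit protein at the exit of the ribosomal tunnel, has a processed copy, *Mrpl23-ps1*, and how reads that fit both were divided was not tested. Counts of *Mrpl23* were 280.0, 206 and 207 in EtOH and 207, 239 and 229.8 in OHT at Day 2, and 231, 189 and 228 against 238, 287 and 252 at Day 4. The groups overlapped at Day 2 and not at Day 4, and the Day 4 log2 fold change of 0.26 (adjusted p = 0.14 by DESeq2, SE 0.14) did not pass. The copy's Day 4 log2 fold change was 0.20 (adjusted p = 0.00406 by DESeq2, SE 0.06). *Mrpl23* held 10.4% to 13.5% of the counts of the pair, and the posterior SD of its count reached 8.93% of the count.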
